A study of Rattus norvegicus with 2 samples.

Results

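The 8 Hedgehog genes described here are the ligands Shh and Ihh, the receptor Ptch1, the signal transducer Smo, the transcription factors Gli1, Gli2 and Gli3, and the ligand-binding inhibitor Hhip. They were chosen by symbol from the 28116 gene symbols of a droplet single-cell RNA-seq data set of fetal rat colon at stage E19.5, and all 8 were found. The study set wild-type (WT) fetuses of a control group (1 library, replicate 1) beside WT fetuses of a maternal obesity group (1 library, replicate 2, here the obesity library). The labels name the obesity library HFD2 and do not spell the abbreviation out. The dams' treatment, the number and sex of the fetuses in a library and the stretch of colon taken are not given in the sources used here. A single library per group allows no test and no p-value, so each difference below is one between these 2 libraries. Intervals on levels, ratios and shares are exact 95% intervals and cover counting error only.

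In the gut, Hedgehog ligands are made by the epithelium and act on the mesenchyme around it. Ptch1 holds Smo inactive until a ligand binds it, after which the balance of the Gli proteins shifts from repressors to activators of transcription. Ptch1, Hhip and Gli1 are themselves targets of the pathway, so their transcripts are widely used as readouts of the response.

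The control library gave 6819 cells with a median of 9848 unique molecular identifiers (UMIs, each 1 captured transcript), and the obesity library 7102 cells with a median of 9983.5. Cells were grouped into 35 clusters without the 8 genes and without the pathway genes listed further on, and clusters that no marker list named are called by number. Among the cells kept, 78 barcode sequences occurred in both libraries, 13 of them in the same class. The mix of cells differed: the control and obesity libraries held 2569 and 1318 epithelial-like, 264 and 783 fibroblast-like, 88 and 364 subepithelial fibroblast-like and 856 and 641 smooth muscle-like cells. Haemoglobin made up 3.53% and 10.1% of the cells' UMIs. Paired values below give the control library first. Levels are CPM, the UMIs of a gene scaled to a total of 1e6 UMIs in the same class and library. They carry no correction for transcript length and compare 1 gene between groups of cells, not genes with each other.

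The promoters printed here belong to the receptor and the inhibitor, on which most of the results on the receiving cells turn. They are RefSeq windows of the rat build GRCr8 from 250 bases before to 50 bases after the gene start, 5′ to 3′, and capitals mark the 9-base Gli consensus TGGGTGGTC. Windows were matched by symbol for 5 of the 8 genes (Ptch1, Smo, Gli2, Gli3 and Hhip), and both strands were searched.
Ptch1, chr17:1555321-1555620, plus strand: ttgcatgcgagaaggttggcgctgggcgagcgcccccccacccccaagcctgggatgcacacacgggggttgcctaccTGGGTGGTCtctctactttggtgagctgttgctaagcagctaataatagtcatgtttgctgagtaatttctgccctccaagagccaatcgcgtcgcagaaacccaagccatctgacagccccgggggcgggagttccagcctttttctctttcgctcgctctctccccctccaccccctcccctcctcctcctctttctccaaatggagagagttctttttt
Hhip, chr19:44767788-44768087, plus strand: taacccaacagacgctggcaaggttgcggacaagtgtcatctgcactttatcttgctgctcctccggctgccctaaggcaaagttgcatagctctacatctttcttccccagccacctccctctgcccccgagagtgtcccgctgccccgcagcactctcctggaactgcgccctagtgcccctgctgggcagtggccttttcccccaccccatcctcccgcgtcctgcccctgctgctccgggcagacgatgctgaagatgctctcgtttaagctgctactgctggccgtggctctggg
The consensus was present in the Ptch1 window, at bases 79 to 87 from the first base printed and on the same strand, and in none of the other 4 windows. It was in 0 of the 24 windows matched for the pathway genes listed further on. Of 33469 rat promoter windows of this length, 129 (0.385%) held it. A match of letters is not a measured binding site, and a window without one says only that these letters are not in it.

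Both ligands were found mainly in the epithelium and the response genes mainly in the mesenchyme, in both libraries. The epithelium (epithelial-like cells, their mixed sub-clusters and 3 low-UMI clusters with epithelial genes) held 99.2% and 97.4% of the Shh UMIs and 97.5% and 97.02% of the Ihh UMIs. The mesenchyme (fibroblast-like, subepithelial fibroblast-like and smooth muscle-like cells and clusters C23, C26 and C32) held 92.3% and 96.5% of the Gli1 UMIs and 93.7% and 95.2% of the Hhip UMIs. For the other receiving genes the division was less sharp. The mesenchyme held 75.1% and 82.2% of Gli2, 79.7% and 85.1% of Gli3, 63.01% and 80.6% of Ptch1 and 42.3% and 61.6% of Smo. These shares also follow the number of cells: the epithelium made up 47.4% and 23.9% of the cells and the mesenchyme 26.7% and 41.9%.

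**Figure D1:**
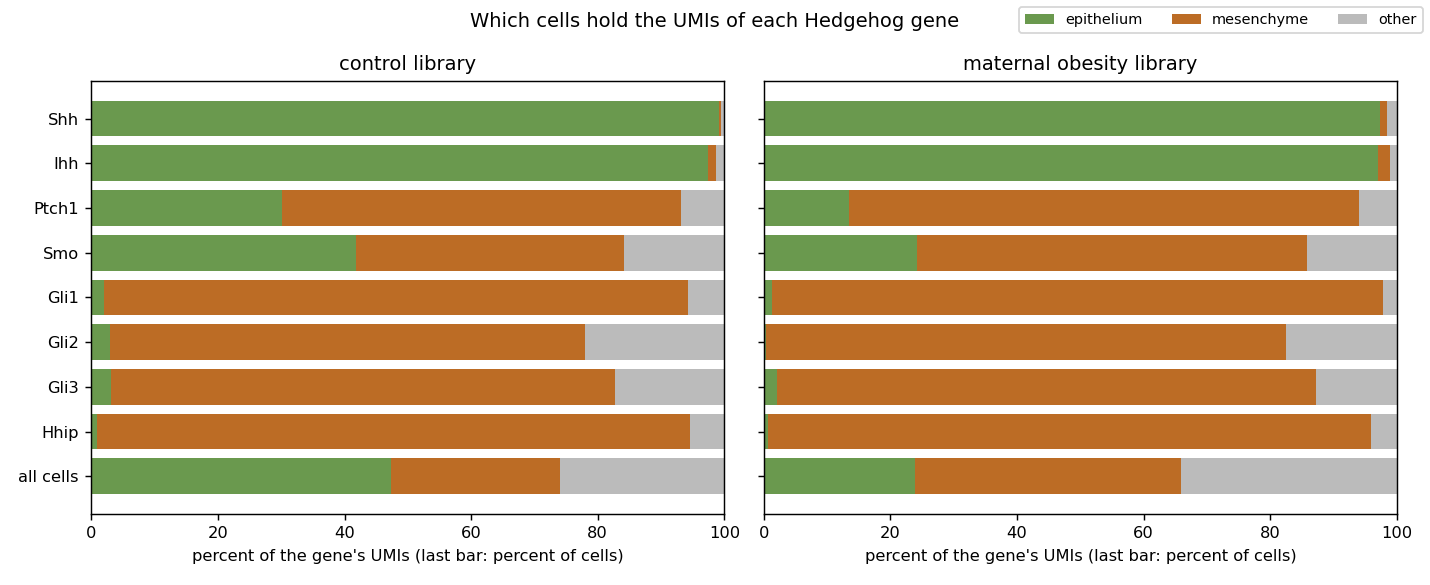
Percent of each Hedgehog gene's UMIs found in epithelium, mesenchyme and all other cells, for the control and the maternal obesity library, with the percent of cells for comparison. Shh and Ihh lie almost wholly in epithelium and Gli1 and Hhip almost wholly in mesenchyme in both libraries, while Ptch1 and Smo have a larger epithelial part.

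Shh, the ligand known for patterning the early gut tube, was at 21.4 CPM (20.1 to 22.6, 1134 UMIs) in control epithelial-like cells and at 25.02 CPM (23.5 to 26.6, 987 UMIs) in those of the obesity library. Levels outside the epithelium were read in 12 classes and clusters with 50 or more cells in both libraries. Cluster C21, with Tuba3b and Hbe1 among its leading genes, also had that many cells but is not among the 12. Over the 12, Shh ranged over 0 to 1.24 CPM in the control library and 0 to 0.876 CPM in the obesity library. It had no UMI in 7 of the 12 in the control library and in 2 of the 12 in the obesity library. C21 had 0 and 3 UMIs of Shh (0 and 2.76 CPM). With every cell thinned to 3000 UMIs, a Shh UMI was seen in 5.21% (4.36 to 6.17) of control epithelial-like cells and in 6.66% (5.34 to 8.17) of those in the obesity library. Without thinning the shares were 16.5% and 22.5%, at median depths of 16845 and 24237.5 UMIs. In macrophage-like cells, which should lack the gene, the thinned shares were 0% and 0.583%, at median depths of 6783.5 and 7704 UMIs.

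Within the epithelium Shh was concentrated in 1 sub-cluster. The epithelial-like cells were clustered again into 17 sub-clusters, of which 3 were set aside as mixed with other cell types. Sub-cluster E8, led by Tdh, Postn and Mdk besides Shh itself, had Shh at 113 CPM (105 to 120.3, 876 UMIs) and 105 CPM (97.3 to 113, 741 UMIs). Its 301 and 190 cells were 11.7% and 14.4% of the epithelial-like cells and held 77.2% and 75.1% of their Shh UMIs. The fetal carrier protein gene Afp was at 531 and 597 CPM in E8 but was not among its 10 leading genes. Shh was not among the genes used for clustering, although genes that vary with it were. Sub-cluster E7, led by Hspb8 and Rbp4 and with Afp among its leading genes, followed in Shh with 21.9 and 26.5 CPM.

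The remaining sub-clusters held little Shh. In the 11 other than E7, E8 and the enteroendocrine-like E15 it was at most 11.3 CPM in the control library and 8.71 CPM in the obesity library. E11, led by Hspa1b and Atg16l2, had no Shh UMI in either library, which allows up to 1.14 and 1.27 CPM (3 counts). E15 had 3 and 24 UMIs of Shh (2.76 and 27.9 CPM), and 1 of its 31 cells in the obesity library gave 37.5% of that library's UMIs.

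Ihh, the ligand known from maturing intestinal epithelium, was more evenly spread. In epithelial-like cells it was at 45.1 CPM (43.3 to 46.9, 2393 UMIs) in the control library and 40.9 CPM (38.9 to 42.96, 1614 UMIs) in the obesity library. All 14 sub-clusters held Ihh UMIs in both libraries, from 21.1 to 133 CPM and from 24.1 to 105 CPM. The highest control level was in E12, led by Fxyd4 and Slc37a2, with 133 CPM in 136 cells, where the 9 cells of the obesity library gave 96.7 CPM. The lowest control level was in E2, led by Hbz and Hbe1, with 21.1 CPM against 30.5 CPM in the obesity library. E8, first in Shh, was inside the range of the others with 43.97 and 47.9 CPM. It held 0.3904 and 0.457 Ihh UMIs per Shh UMI, against 2.11 and 1.64 over all epithelial-like cells. Over the same 12 classes and clusters outside the epithelium Ihh ranged over 0 to 3.46 CPM in the control library and 0 to 1.93 CPM in the obesity library, and the part of free RNA in these low levels was not tested.

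**Figure D2:**
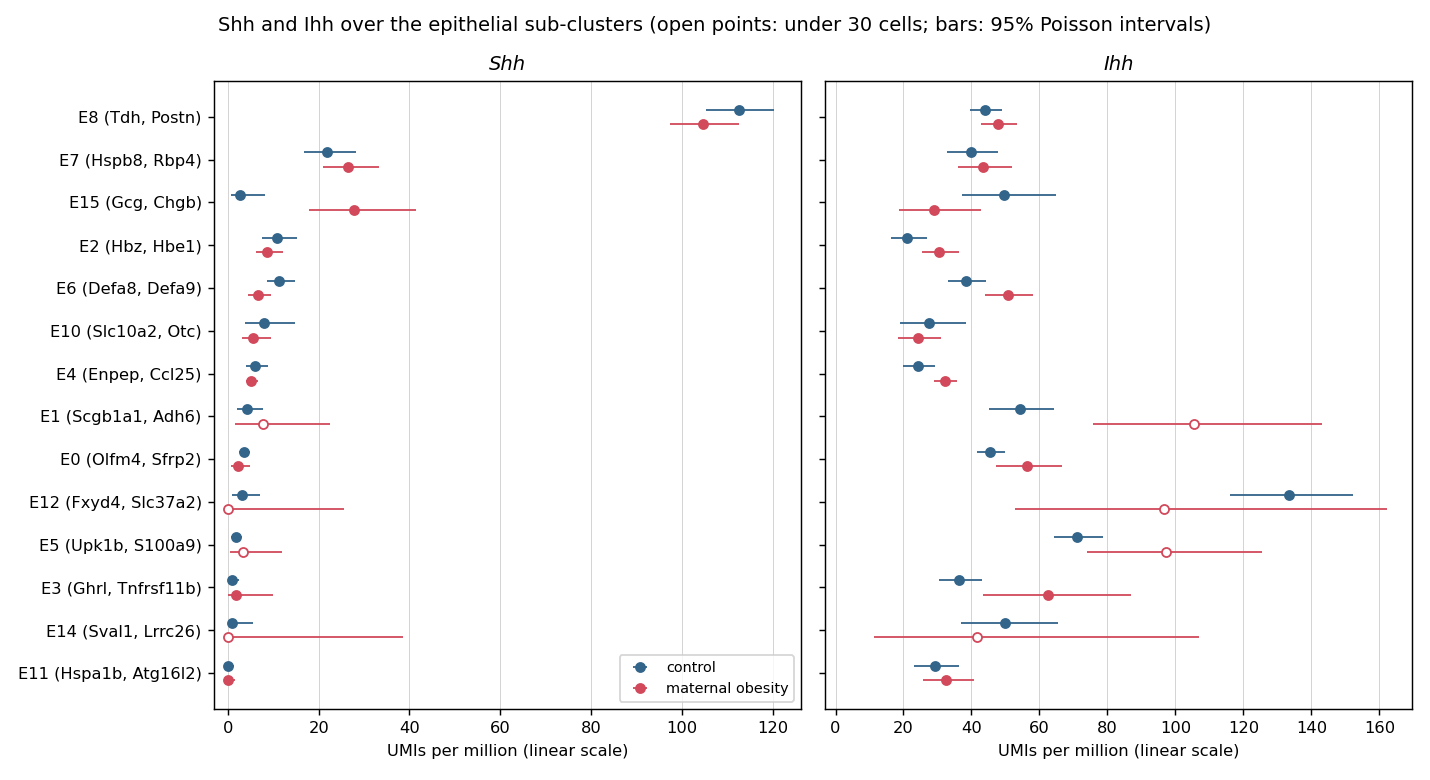
Shh (left) and Ihh (right) in CPM (linear horizontal axes) over 14 epithelial sub-clusters in the control and maternal obesity libraries, with 95% Poisson intervals; open points stand for under 30 cells. Shh stands apart in E8, with 113 and 105 CPM, while Ihh is present in every sub-cluster.

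The labelled tissue was checked with 7 genes. Cdx2, a transcription factor of intestinal epithelium, was present in all 14 sub-clusters, at 72.1 to 262 CPM in the control library and 52.2 to 285 CPM in the obesity library. Over all epithelial-like cells Cdx1, a related factor, was at 30.9 and 52.8 CPM, and Vil1, which codes for a protein of the brush border, at 196 and 249 CPM. Genes known best from other epithelia or from other parts of the gut were present too and differed between the libraries. Scgb1a1, known from airway epithelium, was at 456 and 81.1 CPM, the ghrelin gene Ghrl at 24.1 and 0.482 CPM, the uroplakin gene Upk1b at 2.996 and 0.583 CPM and the defensin gene Defa8 at 19.2 and 77.8 CPM. Upk1b led E5, with 245 and 17 cells. E2 made up 6.62% of the epithelial-like cells in the control library and 17.3% in the obesity library, and E4 5.64% and 19.3%. Ihh in E4 was at 24.3 and 32.3 CPM, near its level in E2. The part of these sub-clusters in the difference of Ihh between the libraries was not tested.

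The same cells could hold both ligands. At 3000 UMIs per cell, Ihh was seen in 15.7% (9.89 to 23.3) of control epithelial-like cells with a Shh UMI and in 13.4% (12.1 to 14.9) of those without. In the obesity library the shares were 15.5% (8.51 to 25.01) and 10.5% (8.83 to 12.4). The intervals overlap in both libraries, and the difference between cells with and without Shh was not tested. Within E8 the shares were 13.4% (6.89 to 22.7) and 15% (10.5 to 20.4) in the control library. In the obesity library they were 21.3% (11.9 to 33.7) and 12.4% (7.26 to 19.4).

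The ratio of the ligands between the libraries depended on how the epithelial cells were pooled. The Shh ratio of obesity over control was 1.17 (1.07 to 1.28) over all epithelial-like cells, 0.9297 (0.842 to 1.03) in E8, and 1.33 (1.12 to 1.595) in the epithelial-like cells without E8, on 258 and 246 UMIs. Shh was higher in the obesity library in 3 of the 9 sub-clusters that had Shh UMIs and 30 or more cells in both libraries. The Ihh ratio was 0.908 (0.852 to 0.967) over all epithelial-like cells, yet Ihh was higher in the obesity library in 8 of 10 such sub-clusters, and with these weighted equally the ratio was 1.14. The makeup of the epithelium differed between the libraries: E12 was 5.29% and 0.683% of the epithelial-like cells, and E5 9.54% and 1.29%. E0, the stem or progenitor-like sub-cluster, was 16.3% and 5.31%. Of the Ihh UMIs, E12 held 9.11% and 0.867%, E5 16% and 3.66% and E0 20.8% and 8.24%. E12 and E5 had under 30 cells in the obesity library, so they were not among the 10. The part of this makeup in the ratios was not tested.

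Ptch1, the receptor, was highest in the subepithelial fibroblast-like cells in both libraries. These cells form 1 cluster led by Mmp10, Nrg1, Bmp4 and Pdgfra, the last a marker of fibroblasts directly beneath the epithelium. Its name rests on 2 list markers among its 10 leading genes, Nrg1 and Pdgfra, and Pdgfra is also on the fibroblast list. Scored against the median of the other clusters, the fibroblast list came first. Against their mean, the subepithelial fibroblast list did. Ptch1 was at 224 CPM (184 to 269, 113 UMIs) in the control library and 397 CPM (374 to 422, 1087 UMIs) in the obesity library. Fibroblast-like cells followed with 79.8 CPM (68.3 to 92.8) and 103 CPM (95.6 to 111), and smooth muscle-like cells with 58.1 CPM (53.6 to 62.9) and 80.3 CPM (74.4 to 86.5). The order of these 3 classes was the same in both libraries, and within a library their intervals did not overlap. Without the control fibroblast-like cell richest in Ptch1, 146 of that class's 170 UMIs remained. Whether the control intervals of fibroblast-like and smooth muscle-like cells then stay apart was not tested. Cluster C23, high in the pacemaker genes Kit and Etv1 and led by Fst and Osr1 among others, had 38.95 and 53.1 CPM. It stayed unnamed: its best-scoring marker list was that of smooth muscle, and neither Kit nor Etv1 was among its 10 leading genes. Cluster C32, with Igfbp5 and Penk among its leading genes, had 35.8 and 56.5 CPM, within counting error of C23. It stayed unnamed too. Against the mean of the other clusters its best-scoring list was that of interstitial cells of Cajal, which holds Kit and Etv1. Against their median it was that of smooth muscle. Cluster C26, with Clec3b and Mfap5 among its leading genes, had the least Ptch1 of the mesenchymal groups, with 6.99 and 13.2 CPM.

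The share of cells with Ptch1 gave the same leading class. At 3000 UMIs per cell, Ptch1 was seen in 48.7% (37.04 to 60.4) of control subepithelial fibroblast-like cells and in 59.6% (54.2 to 64.8) of those in the obesity library. Without thinning the shares were 67.05% and 82.97%, at median depths of 5741 and 6960 UMIs. In macrophage-like cells the thinned shares were 1.802% and 0.875%.

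Epithelial-like cells held Ptch1 at a low level, 8.44 CPM (7.68 to 9.26, 448 UMIs) in the control library and 11 CPM (9.99 to 12.1, 434 UMIs) in the obesity library. Over the 10 sub-clusters with 30 or more cells in both libraries it ranged from 4.13 to 10.3 CPM and from 1.79 to 14.4 CPM. Immune and erythroid classes with 50 or more cells in both libraries ranged over 0.619 to 8.65 CPM in the control library and 1.09 to 8.99 CPM in the obesity library. Of the smaller classes in the obesity library, monocyte or granulocyte-like cells had 11 UMIs of Ptch1 (77.1 CPM), all of them in 1 of the 33 cells. Mast-like cells there had 4 in 27 cells (17.02 CPM, 4.64 to 43.6). The epithelial level was thus not clearly above that of every immune class. Epithelial-like cells had 0.0112 and 0.002304 Hhip UMIs per Ptch1 UMI, against 0.504 and 0.7305 in subepithelial fibroblast-like cells and 1.46 and 1.22 in smooth muscle-like cells. Enteric neuron-like cells had Ptch1 at 9.07 and 14.4 CPM with no Gli1 UMI in either library.

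Hhip, which binds Hedgehog ligands at the cell surface and limits their action, had most of its UMIs in mesenchymal classes. Subepithelial fibroblast-like cells had 113 CPM (85.4 to 146, 57 UMIs) in the control library and 290.1 CPM (270.3 to 311, 794 UMIs) in the obesity library. Smooth muscle-like cells had 84.7 CPM (79.2 to 90.4, 896 UMIs) and 97.99 CPM (91.5 to 105, 836 UMIs). The intervals of these 2 classes overlapped in the control library and were apart in the obesity library. Fibroblast-like cells had 25.8 and 23.99 CPM. C23 had 1 and 12 UMIs of Hhip in all (0.393 and 2.62 CPM), and epithelial-like cells 5 and 1 UMIs. The 33 monocyte or granulocyte-like cells of the obesity library had 9 UMIs of Hhip (63.1 CPM), all of them in 1 cell. The control library had none in 49 such cells.

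Hhip and Ptch1 were also compared cell by cell at 3000 UMIs. In fibroblast-like cells Hhip was seen in 14.3% (5.94 to 27.2) of control cells with a Ptch1 UMI and in 5.21% (2.53 to 9.37) without one, and in 8.21% (4.76 to 12.98) and 2.87% (1.65 to 4.62) in the obesity library. In smooth muscle-like cells the shares were 28.8% (20.8 to 37.9) and 17.5% (14.7 to 20.5) in the control library and 26.6% (19.1 to 35.3) and 21.1% (17.6 to 25.1) in the obesity library. In subepithelial fibroblast-like cells they were 29.7% (15.9 to 46.98) and 23.1% (11.1 to 39.3), then 48.6% (41.6 to 55.6) and 41.8% (33.6 to 50.4). The share was higher beside Ptch1 in all 6 comparisons, but the intervals were apart in 2 of them, the fibroblast-like cells of the obesity library and the smooth muscle-like cells of the control library. Gli1 did not share this direction. It was seen in 0% and 8.72% of fibroblast-like cells with a Ptch1 UMI and in 2.6% and 3.05% of those without. In smooth muscle-like cells these shares were 6.78% and 4.84% with, and 4.41% and 5.65% without. In subepithelial fibroblast-like cells they were 5.41% and 6.25% with, and 0% and 10.6% without.

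Smo, the transducer released by Ptch1, was found throughout the mesenchyme. Over its 6 classes and clusters it ranged over 14.6 to 25.4 CPM in the control library and 19.9 to 33.4 CPM in the obesity library. Enteric glia-like cells had 12.6 and 17.2 CPM and epithelial-like cells 6.29 and 7.17 CPM. Immune and erythroid classes with 50 or more cells in both libraries had at most 1.73 and 1.23 CPM. Mesothelium-like cells, which were fewer (69 and 46), had more Smo than any mesenchymal class, with 55.7 and 65.1 CPM on 43 and 39 UMIs.

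Gli2, the main activator of the family, and Gli3, known mostly as a repressor, were highest in fibroblast-like cells. Gli2 was at 30.1 CPM (23.1 to 38.4) and 40.1 CPM (35.5 to 45.1) there, and C23, with 24.8 CPM (19.05 to 31.7) and 39.1 CPM (33.6 to 45.3), was within counting error of it. Gli3 was at 52.1 CPM (42.9 to 62.8) and 65.7 CPM (59.8 to 72.1) in fibroblast-like cells, and at 48.7 CPM (44.5 to 53.05) and 60.01 CPM (54.9 to 65.4) in smooth muscle-like cells, so the order of these 2 classes is within counting error. The subepithelial fibroblast-like cells, first in Ptch1 and Hhip, were low in Gli3, with 17.8 CPM (8.14 to 33.8, 9 UMIs) and 20.8 CPM (15.8 to 26.98, 57 UMIs). That was 0.342 and 0.317 times the level of fibroblast-like cells. Gli3 was not alone in this: their Gli2 was the lowest of the 6 mesenchymal classes and clusters, with 11.9 and 28.5 CPM on 6 and 78 UMIs. It was 0.395 and 0.71 times the fibroblast-like level, and their Smo 0.624 and 0.793 times. Cluster C26 had Gli3 at 18.2 CPM in the control library, near the subepithelial level, and at 32.2 CPM in the obesity library. Enteric glia-like cells had Gli2 at 10.9 and 22.5 CPM and Gli3 at 20.8 and 29.4 CPM. Epithelial-like cells had 6 and 3 UMIs of Gli2 and 15 and 24 UMIs of Gli3.

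Gli1, an activator that is transcribed in response to the signal, had the fewest UMIs of the receiving genes. Smooth muscle-like cells had 19.6 CPM (16.98 to 22.4, 207 UMIs) and 18.99 CPM (16.2 to 22.1, 162 UMIs). Subepithelial fibroblast-like cells had 9.89 CPM (3.21 to 23.1, 5 UMIs) and 24.8 CPM (19.3 to 31.5, 68 UMIs), and fibroblast-like cells 6.57 CPM (3.59 to 11.03, 14 UMIs) and 14.5 CPM (11.8 to 17.7, 100 UMIs). The leading class was smooth muscle-like in the control library and subepithelial fibroblast-like in the obesity library, with overlapping intervals between these 2 classes in both. The 69 and 46 mesothelium-like cells had Gli1 at 16.8 CPM (8.97 to 28.8, 13 UMIs) and 3.34 CPM (0.404 to 12.1, 2 UMIs). They also held Ptch1, at 36.3 and 43.4 CPM, and Gli3, at 32.4 and 30.05 CPM. Enteric glia-like cells, which hold Gli2 and Gli3, had no Gli1 UMI in either library, which allows up to 0.619 and 0.608 CPM (3 counts).

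**Figure D3:**
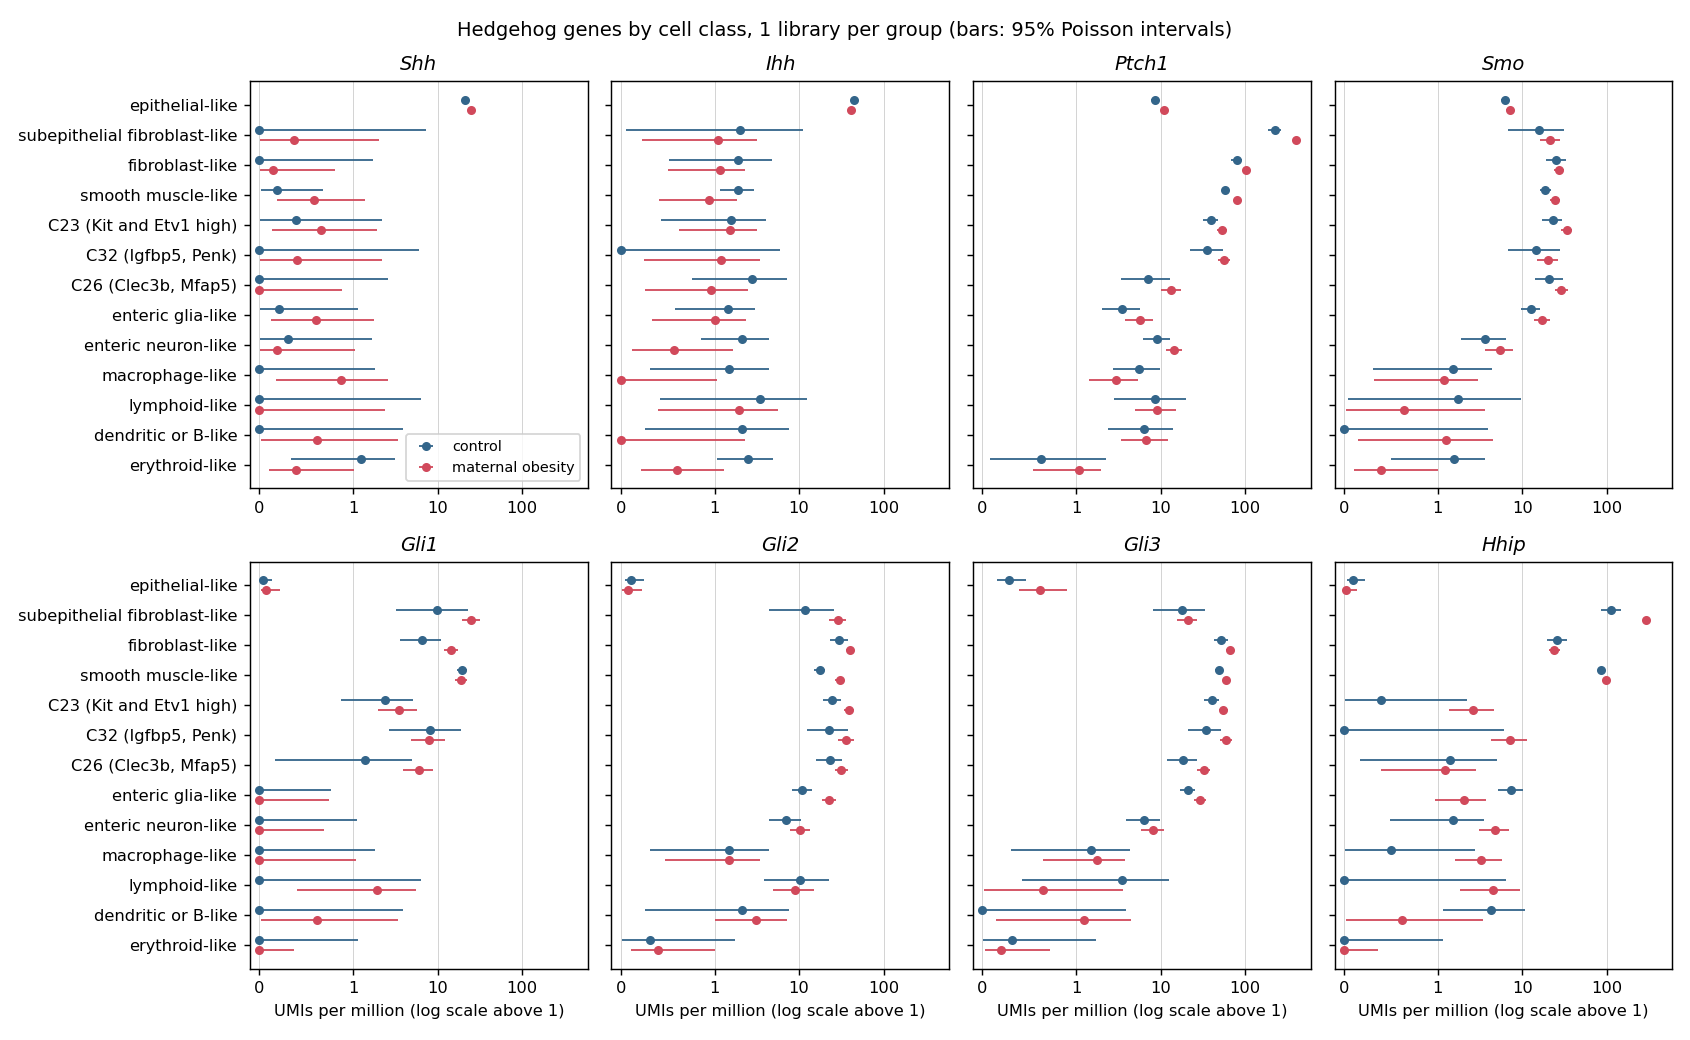
Level of each of the 8 Hedgehog genes in CPM (horizontal axes, linear from 0 to 1 and log scale above 1) by class and cluster in the control and maternal obesity libraries, with 95% Poisson intervals. Shh and Ihh stand out in epithelial-like cells and Ptch1 and Hhip in subepithelial fibroblast-like cells, while Gli2, Gli3 and Smo are spread over the mesenchyme and the enteric glia.

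Between the libraries, 4 of the receiving genes were higher in the obesity library in the subepithelial fibroblast-like cells. Ptch1 was 1.78-fold higher (1.46 to 2.18) and Hhip 2.57-fold (1.97 to 3.43). Gli1 was 2.51-fold higher (1.03 to 7.98) and Gli2 2.401-fold (1.05 to 6.74), on 5 and 6 UMIs in the control library. Both intervals come close to 1, and that of Gli1 held 1 in 6 of 9 alternative settings that gave one. Smo had a ratio of 1.36 (0.648 to 3.301) and Gli3 of 1.17 (0.575 to 2.69), both within counting error of 1. Of the 6 members with 20 or more UMIs in these cells, 4 were at least 1.5-fold higher and 0 lower, with a median log2 ratio of 0.99. Among all 9002 genes measured there, 21.8% were at least 1.5-fold higher and 10.9% lower, with a median of 0.01. As a mean of per-cell CPM, which gives each cell equal weight, the Ptch1 ratio was 1.298.

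Markers of the subepithelial fibroblast-like class itself moved with these genes. Its 10 markers summed to 657 and 1245 CPM, and Pdgfra alone was at 279 and 613 CPM. Pdgfra is also among the 10 fibroblast markers, so the sum of those given next holds it too. The 12 epithelial markers summed to 613 and 315 CPM in the same cells, the opposite direction, while the 10 fibroblast markers summed to 7695 and 8048 CPM and the 8 proliferation genes to 172 and 346 CPM. The control value rests on 88 cells. The part of these markers in the differences of Ptch1 and Hhip was not tested.

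In fibroblast-like cells the response genes differed from each other. Gli1 was 2.21-fold higher in the obesity library (1.26 to 4.19), Ptch1 1.29-fold (1.09 to 1.54), Gli2 1.34-fold (1.01 to 1.78) and Gli3 1.26-fold (1.02 to 1.57). Smo had a ratio of 1.07 (0.788 to 1.48) and Hhip of 0.929 (0.681 to 1.28). Of 6 members measured, 1 was at least 1.5-fold higher (Gli1) and 0 lower, against 16.4% and 5.95% of 11068 genes, so the count is near the background. The class was made of 2 clusters. In C16, which has Tcf21, Adamdec1 and the cell-cycle gene Cdk1 among its leading genes, the Ptch1 ratio was 1.54 (1.24 to 1.94) and the Hhip ratio 1.61 (1.09 to 2.43). In C2, led by Dpt and with Dcn and Lum, they were 0.982 (0.753 to 1.297) and 0.288 (0.1596 to 0.525). A single control cell of C2 held 35.3% of its 68 Ptch1 UMIs, and 1 held 40.9% of its 22 Hhip UMIs. With the cell richest in the gene left out of each library, the ratios over all fibroblast-like cells were 1.47 for Ptch1 and 1.06 for Hhip. The ratios in this class also moved when doublets were treated in another way and the cells clustered again: with no doublet calls removed they were 1.08 for Ptch1, 4.58 for Gli1 and 0.384 for Hhip, and with the expected share of highest doublet scores removed the Ptch1 ratio was 1.99. The class held 123 and 487 cells under the first of these settings and 138 and 471 under the other, so the cells compared also changed. The Gli1 ratio of 4.58 rested on 2 control UMIs. The Gli2 interval held 1 in 6, and the Gli3 interval in 5, of 10 alternative settings that gave one.

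Of the mesenchymal classes, smooth muscle-like cells gave the narrowest intervals. Ptch1 was 1.38-fold higher in the obesity library (1.24 to 1.54), with ratios of 1.252, 1.28 and 1.32 in the 3 clusters C12, C13 and C19. The pooled ratio was above each of these, and with the 3 clusters weighted equally it was 1.28. Hhip had a ratio of 1.16 (1.05 to 1.27), made up of 0.888 (0.758 to 1.04) in C12, 1.14 (0.9805 to 1.33) in C13 and 1.95 (1.49 to 2.58) in C19, a cluster led by Egr4 and Crabp1. Gli1 was within counting error of 1, with 0.971 (0.786 to 1.198). Gli2 was 1.72-fold higher (1.42 to 2.09), Smo 1.29-fold (1.06 to 1.58) and Gli3 1.23-fold (1.09 to 1.397). Of 7 members measured, 1 was at least 1.5-fold higher (Gli2) and 1 lower (Ihh, on 20 and 8 UMIs), against 18.3% and 5.31% of 11793 genes.

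Over 9 mesenchymal groups (the subepithelial cells and clusters C2, C16, C12, C13, C19, C23, C26 and C32), the Ptch1 ratio was above 1 in 8, from 0.982 to 1.89, and its interval lay above 1 in 7. Of the 7983 genes measured in all 9 groups, 25.9% had ratios above 1 in 8 or more and 4.81% had intervals above 1 in 7 or more. Gli2 was above 1 in 9, from 1.14 to 2.401, with 4 intervals above 1, beside 14.8% of genes above 1 in all 9 and 16% with 4 or more such intervals. Gli3 was above 1 in 8 and Smo in 9, with 5 and 2 intervals above 1. Gli1 was above 1 in 6, with 4 intervals above 1. Hhip was above 1 in 4 of the 6 groups that had 20 or more of its UMIs, with 3 intervals above 1 and 1 below. The 9 groups come from the same pair of libraries and are not replicates. The median UMIs per cell were higher in the obesity library in each of the 6 mesenchymal classes and clusters, and with every cell thinned to 3000 UMIs the Ptch1 ratio was 1.68 in subepithelial fibroblast-like, 1.46 in fibroblast-like and 1.45 in smooth muscle-like cells, and the subepithelial Hhip ratio 2.497.

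**Figure D4:**
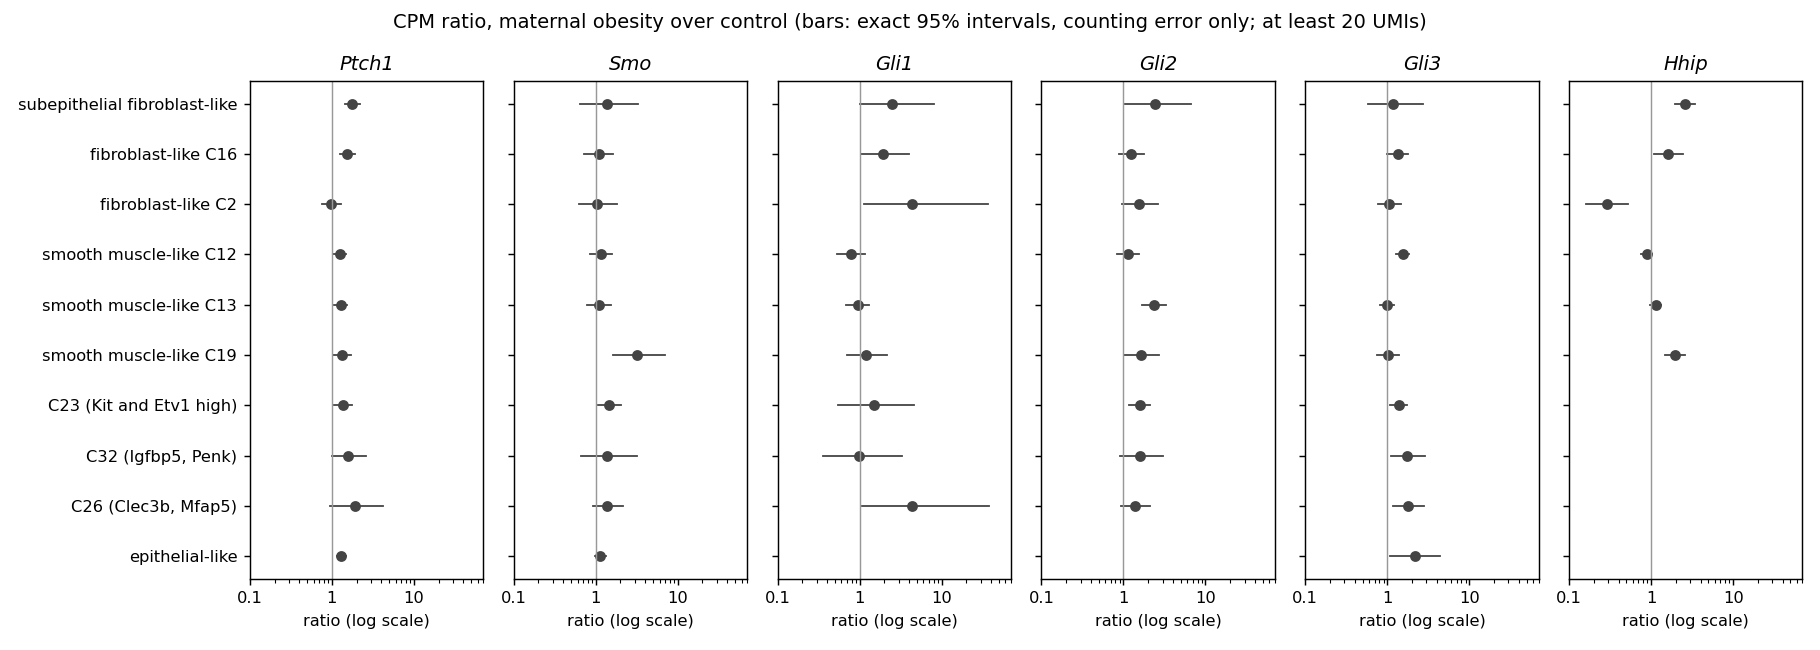
Ratio of CPM in the maternal obesity library over the control library (log horizontal axes, the line marks 1) for 6 Hedgehog genes, with exact 95% intervals for counting error, where a gene had at least 20 UMIs. Gli2 lies above 1 in all 9 mesenchymal groups and Ptch1 in 8, and Hhip ranges from 0.288 in C2 to 2.57 in the subepithelial cells.

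Outside the mesenchyme, Hhip was lower in the obesity library in enteric glia-like cells, with 7.43 and 2.03 CPM on 36 and 10 UMIs, a ratio of 0.273 (0.121 to 0.561). Gli2 was 2.06-fold higher there (1.47 to 2.91) and Gli3 1.41-fold (1.09 to 1.83). Of 5 members measured in the glia, 2 were at least 1.5-fold higher (Gli2, and Ptch1 on 17 and 28 UMIs) and 1 lower (Hhip), against 18.8% and 4.31% of 10555 genes. In epithelial-like cells Ptch1 had a ratio of 1.304 (1.14 to 1.49) and Gli3 of 2.15 (1.08 to 4.41), the latter on 15 and 24 UMIs. Of 5 members measured in the epithelium, 1 was at least 1.5-fold higher (Gli3) and 0 lower, against 12.1% and 11.4% of 13474 genes.

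A list of 36 other pathway genes places the members in context, and 35 of them were found. Among genes for ligand release, Disp1, which exports lipid-modified ligand, was at 11.6 and 12.7 CPM in epithelial-like cells, a ratio of 1.09 (0.971 to 1.23). Hhat, the enzyme that attaches palmitate to the ligands, had 6 and 21 UMIs in those cells. Scube2, which helps free the ligand, had 3 and 55 UMIs in fibroblast-like cells, a ratio of 5.68 (1.84 to 28.4). Scube1 was 2.27-fold higher in the obesity library in smooth muscle-like cells (1.78 to 2.91).

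Of the co-receptors, Boc was highest in fibroblast-like cells among the 4 main classes, with 77.9 and 64.1 CPM, a ratio of 0.823 (0.687 to 0.989). Cdon was higher in the obesity library in smooth muscle-like cells, with 22.4 and 37.3 CPM (1.66-fold, 1.402 to 1.98), and in fibroblast-like cells, with 16.4 and 26.3 CPM (1.601-fold, 1.11 to 2.37). Lrp2, an endocytic receptor that can take up Shh, was lower in epithelial-like cells, with 7.23 and 3.27 CPM, a ratio of 0.452 (0.367 to 0.553).

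Of the 14 genes for signal transduction, the cilium and Gli processing, 4 of 12 measured in subepithelial fibroblast-like cells were at least 1.5-fold higher in the obesity library (Sufu, Kif7, Evc and Gsk3b) and 0 lower, against 21.8% and 10.9% of all genes there. In fibroblast-like and in smooth muscle-like cells these counts were 3 and 0 of 13 each, with Kif7 and Btrc among the higher genes in both, which is near the 16.4% and 18.3% of all genes that were higher in these classes. Kif7, a ciliary kinesin, had a ratio of 2.06 (1.17 to 3.91) in fibroblast-like cells and 1.71 (1.29 to 2.28) in smooth muscle-like cells. Btrc, part of the ligase that processes Gli3, was 1.98-fold higher in smooth muscle-like cells (1.55 to 2.56) and 1.56-fold in epithelial-like cells (1.32 to 1.84). Sufu, which restrains the Gli proteins, had a ratio of 2.22 (0.9701 to 6.24) in the subepithelial cells, within counting error of 1.

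Among the target genes, Foxf1, a forkhead factor of gut mesenchyme, was at 781 and 1159.7 CPM in subepithelial fibroblast-like cells (1.48-fold, 1.34 to 1.65), 757 and 927 CPM in smooth muscle-like cells and 491 and 618 CPM in fibroblast-like cells. Bmp4, a secreted factor that signals to the epithelium, was at 643 and 753 CPM in the subepithelial cells (1.17-fold, 1.04 to 1.32) and 1.795 and 7.85 CPM in smooth muscle-like cells. Foxl1, which was also a marker used to name the subepithelial cells, was at 13.8 and 28.5 CPM there, with a ratio of 2.06 (0.953 to 5.29). Nkx2-3 was at 23.7 and 51.9 CPM (2.19-fold, 1.21 to 4.33). Other targets were lower. Sfrp1, a secreted Wnt antagonist, was lower in the obesity library in smooth muscle-like cells, with 41.1 and 18.6 CPM and a ratio of 0.453 (0.376 to 0.545). In fibroblast-like cells Sfrp1 was at 81.7 and 57.3 CPM, a ratio of 0.701 (0.585 to 0.843). Osr1 was lower in fibroblast-like cells, with 82.2 and 55.2 CPM and a ratio of 0.672 (0.561 to 0.809). Both were also the genes of the lists at least 1.5-fold lower in the subepithelial cells, with ratios of 0.6596 (0.359 to 1.29) for Sfrp1 and 0.493 (0.247 to 1.05) for Osr1.

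Over all 4 lists, 11 of 26 measured genes were at least 1.5-fold higher and 2 lower in subepithelial fibroblast-like cells, with a median log2 ratio of 0.47 against 0.01 over all genes, of which 21.8% were higher and 10.9% lower. In fibroblast-like cells 8 of 30 were higher and 1 lower (median 0.26 against 0.04), beside 16.4% and 5.95% of all genes. In smooth muscle-like cells 8 of 27 were higher and 1 lower (0.20 against 0.12), beside 18.3% and 5.31%. In epithelial-like cells 3 of 25 were higher and 3 lower (0.11 against 0.05), beside 12.1% and 11.4%, so these counts are near the background.

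The genes whose levels were most like each member's were found by Pearson's r of log2(CPM + 1) over 32 points (16 classes and clusters in each of 2 libraries) among 12404 genes with 100 or more UMIs. The values only describe the pattern, since the points share libraries and depth. For Shh they were Slc39a4 (r = 0.958), Ovol2 and Map3k21, and for Ihh Elf3 (r = 0.964), Muc13 and Lgals4. Elf3 was one of the markers used to name epithelial cells. For Ptch1 they were Cped1 (r = 0.874), Plekhh2 and Raver2, and for Gli1 Cped1 (r = 0.9397), Cxcl14 and Htra1, so that Cped1 was nearest to both. For Gli2 they were Cox6b2 (r = 0.959), Nfia and Mex3b, and for Gli3 Reck (r = 0.936), Rgma and Nfic. For Smo they were Evc2 (r = 0.935), Tcf7l1 and Gpc1, the first of them a gene of the pathway lists, and for Hhip Mgll (r = 0.849), Alkal2 and Bhlhe22. Among the members themselves, Gli2 and Gli3 were most alike (r = 0.894), then Gli3 and Smo (r = 0.874) and Gli1 and Ptch1 (r = 0.834).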

How the data were processed

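Fetal rat colon was measured by droplet single-cell RNA-seq, 1 library per group. The deposited matrices hold raw UMI counts per gene and barcode without normalisation, per the file headers. Those headers name cellranger 6.1.2, the submitters' processing notes Cell Ranger 2.1.1, and the genome build was not given in the sources used here. UMIs of identifiers with the same symbol (2457 identifiers, 173 symbols) were summed.

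Kept barcodes had 500 or more genes and no more than 20% mitochondrial UMIs (6879 of 8903 in the control library, 7236 of 9714 in the other). Scrublet in scanpy 1.11.5 called 60 (0.872%) and 134 (1.85%) of them doublets, which were removed. At 0.8% per 1000 barcodes, 7.12% and 7.77% would be doublets, so undetected doublets may remain. Leiden clusters at resolution 1 were built from log counts per 10000 with 2000 variable genes, 30 principal components and 15 neighbours. Clusters were named from marker lists, with a scoring rule set after the clusters had been seen.

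UMIs were summed per class and library. Ratios have exact conditional binomial intervals, levels exact Poisson intervals and shares Clopper-Pearson intervals, at 95%, and the code was tested on simulated counts. Where a level of 0 is given a limit, the limit is 3 counts. Median log2 ratios have 0.5 UMI added to each sum and cover genes with 20 or more UMIs. The genes named are the 8 members, genes of the pathway lists and the 3 nearest genes per member, besides genes that describe clusters and the tissue, which were chosen after their values were seen. The members and lists were chosen with earlier results of these data known. No test compares the groups.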

Additional observations from a re-analysis of the deposited data

How the results depend on the processing

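Other filters, doublet handling, clustering, totals and weights were tried. Of 174 alternative ratios, 156 stayed within the interval of the reported ratio, 17 did not, and 1 moved to the other side of 1 where the reported interval left out 1. The Ihh ratio in epithelial-like cells was 0.807 in cells thinned to 3000 UMIs and 1.14 with sub-clusters weighted equally, the value on the other side of 1. Ratios whose reported intervals held 1 crossed it too, in 3 of 12 alternatives each for Smo and Hhip in fibroblast-like cells and in 2 of 12 for Gli1 in smooth muscle-like cells. Of the reported intervals that left out 1, that of Gli1 in subepithelial cells held 1 in 6 of 9 alternatives, that of Gli2 in fibroblast-like cells in 6 of 10 and that of Gli3 there in 5 of 10. Intervals of Shh in epithelial-like cells, of Ptch1 in fibroblast-like cells, and of Gli2 and Hhip in smooth muscle-like cells held 1 in 1 of 10 each, and that of Gli1 in fibroblast-like cells in 1 of 9. In fibroblast-like cells the Ptch1 ratio was 1.56 with at most 10% mitochondrial UMIs, 1.63 with 1000 or more genes per barcode, 1.08 with no doublet calls removed, 1.99 with the expected share of highest Scrublet scores removed and 1.57 with ComBat adjustment. With the highest Scrublet scores removed the control library had 0 Gli1 UMIs in these cells, and the ratio of 3.15 was computed against 3 counts. The Gli1 ratio there was 4.58 with no doublet calls removed, 4.89 at Leiden resolution 0.5 and 4.76 with ComBat, on 2, 4 and 2 control UMIs. Their intervals were 1.19 to 39.1, 1.82 to 18.5 and 1.23 to 40.7. The Hhip ratio there was 0.384, 0.586 and 0.582 in the same 3 settings, 0.497 with the highest Scrublet scores removed, 0.604 in thinned cells and 0.675 with the 2 clusters weighted equally. The subepithelial Ptch1 ratio was 1.298 as a mean of per-cell CPM, and the Hhip ratio in smooth muscle-like cells 1.28. Pathway genes past the fold in fibroblast-like cells numbered 9 at 1.5-fold, 17 at a lower fold and 4 at 2-fold. The cause of these shifts was not tested. The alternatives for subepithelial and smooth muscle-like cells, the equal weights and the removal of single cells were chosen after seeing the data. With 1000 or more genes per barcode no class was named subepithelial fibroblast-like, so that setting gave no value there. Few control UMIs limit several ratios, such as Gli1 and Gli2 in subepithelial cells (5 and 6), Scube2 in fibroblast-like cells (3) and Gli1 in C2 and C26 (2 each).

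No paired analysis was possible because the labels number the control library 1 and the maternal obesity library 2, so the groups share no replicate number.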
